A study of Xenopus tropicalis with 18 samples.

Results

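The genes described here had fewer transcripts in *Xenopus tropicalis* embryos depleted of Sox3 than in control embryos at both late blastula (stage 9) and early gastrula (stage 10.5). They were selected on measured values. Counts were scaled to a common library total (CPM) in each library, and the ratio log2((morphant CPM + 1)/(control CPM + 1)) was taken in each pair of same-numbered libraries. A gene was a member when this ratio was -0.8 or less in both pairs of both stages, and 55 of 28850 genes met that condition, which is 0.191% of all genes (113 genes or 0.392% at late blastula, 167 genes or 0.579% at early gastrula). Genes of several families of developmental transcription factors and a few single genes, the protease gene *astl2c* among them, were left out by their names, which removed 8 genes (*astl2c*, *foxd4l1.1*, *hes5.10*, *lhx5*, *neurog3*, *sox21*, *tfap2a* and *zic4*) and left 47 members. Since the ratio in Sox3 morphants chose the members, their ratios in these libraries are given as a description and were not tested.

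Embryos were wild-type *X. tropicalis* fertilized in vitro, and Foxi2 or Sox3 was depleted by a translation-blocking morpholino antisense oligonucleotide (MO) injected into the animal side of the embryo at the start of cleavage. Poly(A) RNA of whole embryos was sequenced in 18 libraries. The Sox3 experiment had 2 morphant and 2 control libraries at each stage. The Foxi2 experiment had controls of its own, with 3 morphant and 3 control libraries at late blastula and 2 of each at early gastrula. The study's text calls the controls wild-type embryos, and neither it nor the labels say whether they were mock-injected. The labels do not say whether libraries came from separate clutches, so p-values measure only the spread between these libraries.

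Sox3 is a maternal transcription factor of the SoxB1 family that is deposited in the egg and later marks the prospective neural ectoderm, and Foxi2 is a maternal forkhead factor of the animal hemisphere. The embryo's own genome becomes active in the blastula, and transcripts supplied by the mother are then joined or replaced by zygotic ones. The outer layer of the ectoderm becomes an epithelium that makes keratins and mucus, while signals and their receptors divide the ectoderm into neural and epidermal territories.

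Library totals ranged from 12740571 to 27866261 expected counts. Both MOs act on translation, so the targeted transcripts do not measure depletion. *sox3* had 907 to 1717 CPM in the 4 Sox3 morphant libraries and 449 to 705 CPM in their controls, and *foxi2* had 270 to 395 CPM in the 5 Foxi2 morphant libraries and 110 to 357 CPM in theirs. Of the marker genes listed for the germ layers, the 12 ectoderm markers, 1 of which is a member (*krt7*), summed to 765 and 771 CPM in Sox3 morphants and 834 and 855 CPM in controls at late blastula, and to 1495 and 1412 against 1851 and 1607 CPM at early gastrula. *krt7* alone had 209 and 135 against 470 and 290 CPM at early gastrula, a large part of that shift. The median ratio of the 12 ectoderm markers was -0.14 and -0.18 at late blastula and 0.00 and 0.04 at early gastrula. Of them, *krt7* and *tfap2a*, which was left out by name, met the ratio condition. The 11 mesoderm markers summed to 161 and 166 against 260 and 235 CPM at late blastula and to 1317 and 1291 against 1319 and 1233 CPM at early gastrula. The 12 endoderm markers summed to 187 and 281 against 219 and 295 CPM, and then to 2142 and 3172 against 1850 and 2361 CPM. Of these markers only *tp63*, in 1 morphant library, and *msgn1*, in all 4 libraries, were at 0 at late blastula, and none was at 0 at early gastrula. The 15 genes found of a p53 response list summed to 1022 and 1229 against 1053 and 1211 CPM, and then to 1081 and 2366 against 1024 and 1777 CPM. The part of these shifts in the values of the members was not tested, and in whole embryos fewer cells of a type and less RNA per cell cannot be told apart.

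All 47 members were found in the RefSeq annotation of the same build (V10.0), 42 as protein-coding genes and 5 as long non-coding RNAs. They lay on 8 chromosomes. A gene symbol was given for 27 of them, and 20 had only a LOC identifier, for which no function is stated here. Over the 4 Sox3 pairs, the mean log2 ratio of a member ran from -3.96 (*LOC100487186*) to -0.86 (*irf5*), with a median of -1.54. Both morphant libraries lay under both controls for 47 of 47 members at late blastula, against 8.06% of all genes, and for 46 of 47 at early gastrula, against 10.0% of all genes. The ratio that chose the members nearly fixes these counts. The exception was *LOC100495222*, which had 13.5 and 44.6 CPM in morphants and 26.6 and 93.1 CPM in controls of early gastrula and was lower only within each pair.

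The members were sorted by role with lists drawn up when earlier results of these data were known, so the shares of the lists describe only that choice. The ratio condition was met by 3 of 29 signals, 4 of 20 receptors, 4 of 25 regulators of signalling, 4 of 20 epithelial and secreted genes, 5 of 24 enzymes and transporters, 1 of 24 genes of transcription and cell cycle, and 4 of 20 housekeeping and unrelated genes.

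**Figure D1:**
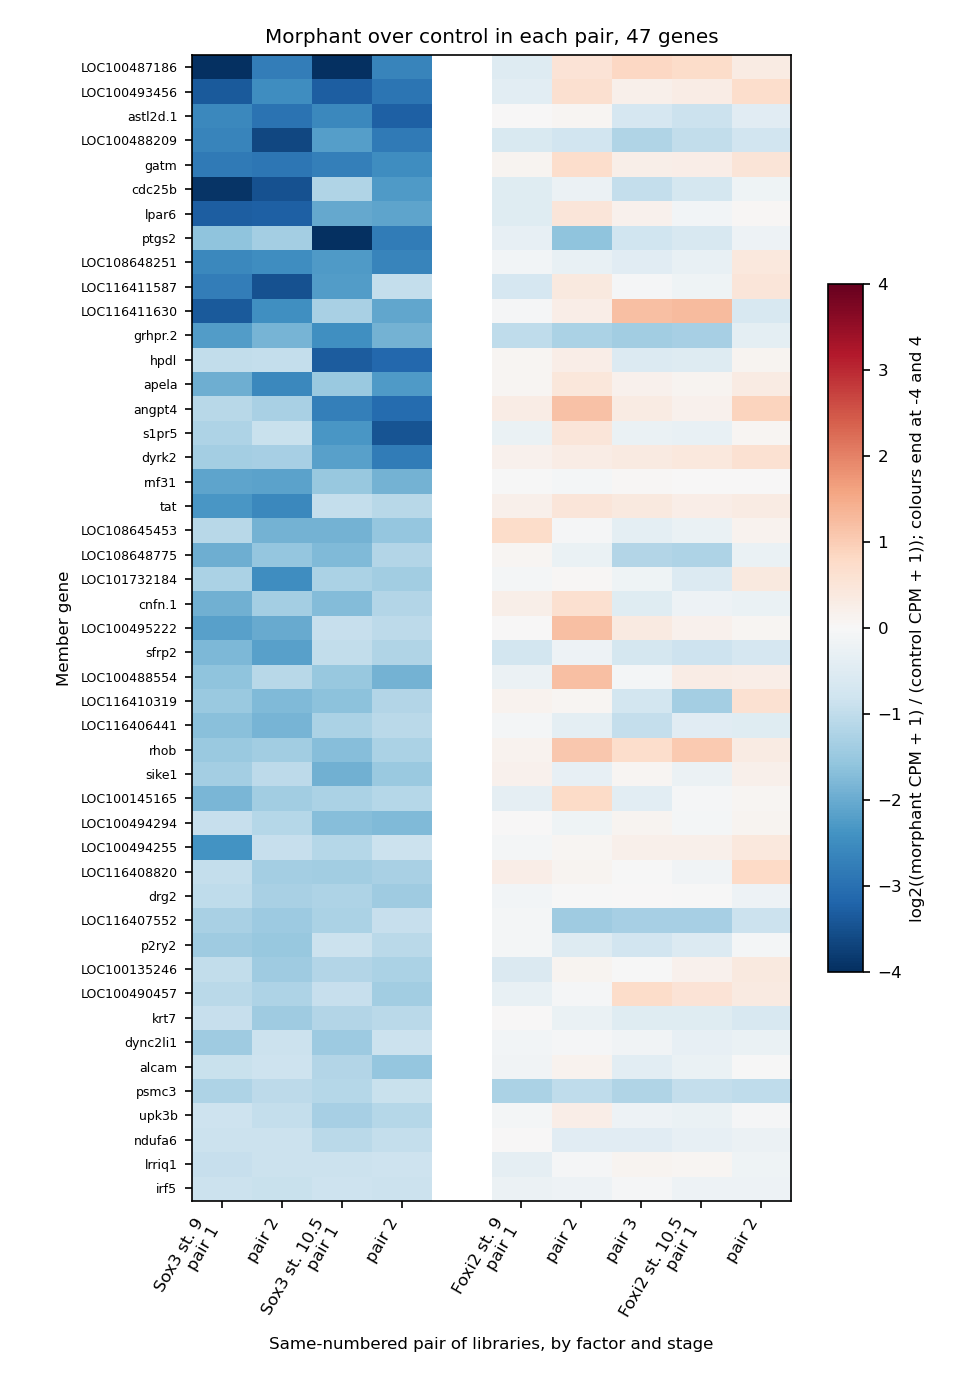
Log2 ratio of morphant over control in each same-numbered pair of libraries for the 47 members (rows, ordered by the mean of the 4 Sox3 pairs), with Sox3 pairs on the left and Foxi2 pairs on the right. The Sox3 pairs chose the genes and are blue throughout, whereas the 5 Foxi2 pairs hold both colours. A ratio below 0 in all 5 was found for 11 members, *psmc3* and *grhpr.2* among them.

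Among the signals were *angpt4*, *apela* and *sfrp2*. *angpt4* encodes an angiopoietin, a ligand of Tie receptors. It had 0.946 and 1.09 CPM in Sox3 morphants and 3.19 and 4.18 CPM in controls at late blastula, and 3.16 and 1.63 against 26.7 and 21.3 CPM at early gastrula. Morphant embryos thus held 9.97% of the control level at early gastrula, and the groups did not overlap at either stage. Transcripts of *angpt4.2*, its neighbouring copy, were lower at late blastula (log2 ratios -1.41 and -1.49) but less so at early gastrula (-0.43 and -0.24), so the copy was not a member. Expected counts of *angpt4* were not whole numbers in Sox3 libraries (636.91 and 485.36 in controls of early gastrula). Reads shared with *angpt4.2* could thus have been split by the estimation of counts, and the percentage for *angpt4* depends on that split. A ratio over both copies together was not computed. *apela* encodes a secreted peptide that binds the apelin receptor and guides mesendodermal cells in zebrafish. It had 1.44 and 0.536 CPM in morphants against 8.38 and 8.14 CPM in controls of late blastula, and 27.0 and 20.3 against 76.9 and 101 CPM at early gastrula. The receptor gene *aplnr* had ratios from -0.60 to 0.09 in the same pairs. *sfrp2*, a secreted antagonist of Wnt ligands, had 7.97 and 5.01 against 29.8 and 26.0 CPM at late blastula and 24.7 and 28.3 against 49.5 and 66.1 CPM at early gastrula. The morphants therefore held 23.2% of the control level of *sfrp2* at the first stage and 45.8% at the second.

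Receptors for lipid and nucleotide signals, all of them G-protein-coupled, were found among the members. *lpar6*, a receptor for lysophosphatidic acid, was the most abundant, with 59.7 and 43.7 CPM in controls and 5.17 and 3.67 CPM in morphants of late blastula. At early gastrula *lpar6* had 221 and 208 CPM in controls and 52.5 and 47.5 CPM in morphants, or 23.3% of the control level. The related receptors *lpar1* and *lpar4* had ratios between -0.55 and 0.08 in the 4 pairs. *s1pr5*, a receptor for sphingosine-1-phosphate, was scarcely present at late blastula (0.287 and 0.115 against 2.05 and 1.07 CPM). In early gastrulae 15.3 and 2.76 CPM were measured in morphants and 80.6 and 40.2 CPM in controls. *p2ry2*, a receptor for extracellular nucleotides, had 1.21 and 1.14 against 4.87 and 5.17 CPM, and later 9.80 and 6.50 against 18.7 and 14.7 CPM. Some of its reads could have been shared with a neighbouring member, *LOC116406441*. *alcam*, an adhesion molecule of the immunoglobulin superfamily, had 0.610 and 0.574 against 1.97 and 1.81 CPM at late blastula and 13.4 and 7.93 against 31.3 and 24.8 CPM at early gastrula. All 4 genes had higher levels at early gastrula than at late blastula, in controls and morphants alike.

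Regulators inside the signalling pathways included *rhob*, *dyrk2*, *sike1* and *rnf31*. *rhob*, a small GTPase that acts on actin and endosomes, had 24.9 and 29.2 CPM in morphants and 71.5 and 78.5 CPM in controls at late blastula. At early gastrula *rhob* had 61.2 and 133 against 200 and 320 CPM. *dyrk2*, a dual-specificity kinase, had 10.5 and 7.69 against 28.3 and 20.7 CPM at late blastula and 13.2 and 8.99 against 62.8 and 69.0 CPM at early gastrula. Its level was thus higher at the later stage in controls, while the 4 morphant libraries lay between 7.69 and 13.2 CPM. *rnf31*, the catalytic subunit of the complex that builds linear ubiquitin chains, had 6.32 and 6.01 CPM in morphants and 30.4 and 30.1 CPM in controls, then 6.62 and 5.27 against 20.8 and 22.1 CPM. *sike1*, which restrains the kinase IKK-epsilon, had 24.2 and 34.1 against 63.1 and 70.8 CPM, then 22.1 and 27.8 against 87.3 and 79.2 CPM. *rnf31* was the lower of these, at 20.4% and 27.7% of the control level, and *sike1* was at 43.6% and 30.0%. In the Foxi2 controls, however, *sike1* had only 21.4 to 26.5 CPM over both stages, near its level in Sox3 morphants. The difference between the controls of the 2 experiments was not tested.

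Epithelial and secreted genes were represented by *krt7*, *cnfn.1*, *upk3b* and *astl2d.1*. The keratin gene *krt7* had 21.4 and 8.85 CPM in morphants and 41.4 and 25.7 CPM in controls of late blastula, and 209 and 135 against 470 and 290 CPM at early gastrula. The morphants held 45.1% and 45.2% of the control level. *krt70*, an epidermal keratin gene that was not a member, had ratios of 0.10, -0.54, -0.05 and 0.23. *cnfn.1*, which encodes a cornifelin of the cornified envelope, had 0.646 and 0.880 against 5.28 and 3.83 CPM, then 32.1 and 24.4 against 110 and 56.1 CPM. *upk3b* encodes a uroplakin of apical membrane plaques and had 0.538 and 0.0765 against 1.72 and 1.07 CPM, then 25.6 and 14.6 against 66.2 and 33.1 CPM. The uroplakin *upk2* was lower too (-0.55 and -0.60 at late blastula, -1.89 and -1.52 at early gastrula) without reaching the condition at the first stage, whereas *upk1b* had ratios from 0.11 to 0.23. *astl2d.1*, an astacin-like secreted metalloprotease, had one of the strongest ratios. It had 0.389 and 0.286 CPM in morphants and 7.35 and 8.92 CPM in controls, then 7.13 and 4.62 against 47.7 and 53.3 CPM. Its neighbouring copies *astl2d.2*, *astl2d.3* and *astl2d.4* had ratios from -0.38 to 1.02, and reads shared among such copies could have been split between them by the estimation of counts.

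Of the list of enzymes and transporters, 5 genes were members, most of them enzymes of amino acid or lipid metabolism. *gatm* makes guanidinoacetate in the first step of creatine synthesis. It had 0.431 and 0.383 CPM in morphants and 9.13 and 9.28 CPM in controls at late blastula, and 70.7 and 57.1 against 478 and 326 CPM at early gastrula. The enzyme of the second step, *gamt*, had ratios from -0.45 to 0.24. *hpdl*, a relative of the dioxygenase of tyrosine breakdown, was at 75.5 and 75.4 CPM in controls of late blastula and at 38.0 and 38.1 CPM in the morphants. At early gastrula *hpdl* had 604 and 458 CPM in controls and 59.8 and 50.5 CPM in morphants, so the morphants held 50.4% of the control level at the first stage and 10.4% at the second. The annotated span of *hpdl* overlaps *selenop2l*, which was also lower (ratios -1.08, -0.50, -1.54 and -1.42) but reached at most 2.14 CPM in a Sox3 library, and *mutyh*, whose ratios lay between -0.15 and -0.04.

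*tat*, the tyrosine aminotransferase, had 5.42 and 3.75 against 31.1 and 27.3 CPM at late blastula and 61.3 and 53.1 against 120 and 115 CPM at early gastrula. *ptgs2*, the inducible cyclooxygenase that starts prostaglandin synthesis, had 5.20 and 3.79 against 17.8 and 11.2 CPM, then 2.42 and 12.1 against 83.1 and 90.1 CPM. The morphant libraries of early gastrula thus differed widely for *ptgs2*, and both lay well under the controls. *grhpr.2*, a glyoxylate and hydroxypyruvate reductase, had 20.9 and 14.8 against 102 and 56.6 CPM, then 27.9 and 26.6 against 156 and 102 CPM. Its neighbouring copy *grhpr.1* was at 2.21 to 7.25 CPM, with ratios from -0.35 to 0.12. *cdc25b*, a phosphatase that activates cyclin-dependent kinases, was the cell cycle gene of the group. It had 3.12 and 2.83 CPM in morphants and 62.1 and 42.3 CPM in controls of late blastula, and 50.7 and 29.0 against 119 and 142 CPM at early gastrula. Its relative *cdc25a* had higher values in morphants in all 4 pairs (0.29 to 0.95), and *cdc25c* stayed between -0.06 and 0.11.

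**Figure D2:**
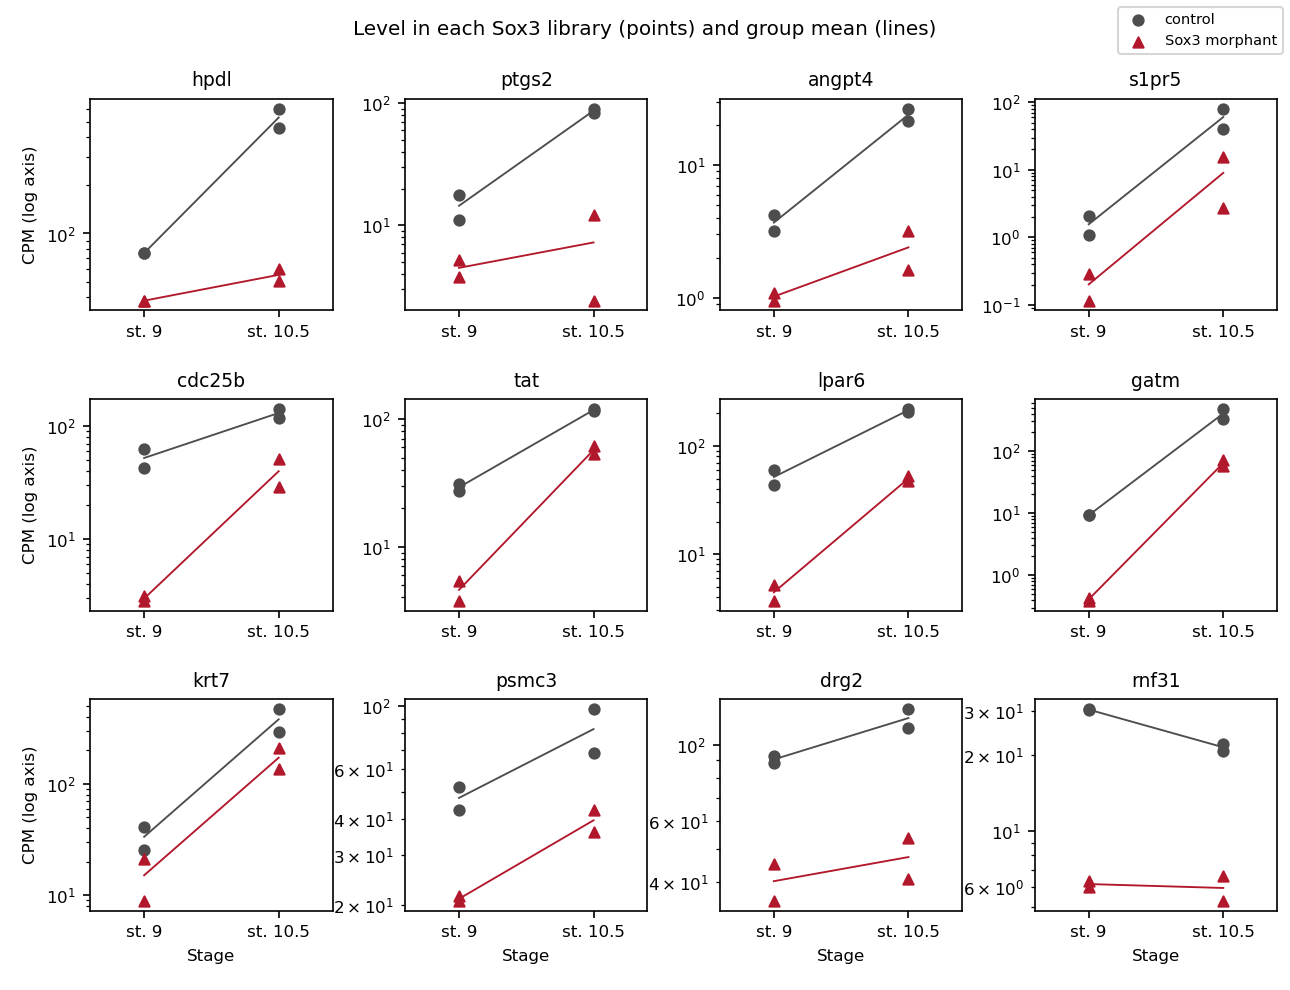
CPM in each Sox3 library for 12 members at stage 9 and stage 10.5, on log axes, with grey circles for controls, red triangles for Sox3 morphants and lines through the group means. *hpdl* and *ptgs2* stand further apart at stage 10.5, *cdc25b* and *tat* stand further apart at stage 9, and *drg2*, *psmc3* and *rnf31* differ by less than 1 log2 unit between stages.

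Several members came from the list of housekeeping and unrelated genes, which include basic machinery of every cell. *psmc3*, an ATPase of the 19S cap of the proteasome, had 21.5 and 20.7 CPM in morphants and 51.8 and 43.3 CPM in controls of late blastula, and 43.2 and 36.1 against 97.4 and 68.2 CPM at early gastrula. The other ATPases of that ring, *psmc1*, *psmc2*, *psmc4*, *psmc5* and *psmc6*, had ratios between -0.36 and 0.27 in the same pairs, and the base subunits *psmd1* and *psmd2* had ratios between -0.06 and 0.07. These relatives, like the others set beside members here, were picked after the members were known. *ndufa6*, a subunit of respiratory complex I, had 14.7 and 13.2 against 27.6 and 24.7 CPM, then 18.5 and 17.4 against 39.9 and 34.5 CPM. Among other complex I genes, ratios are given only for *ndufa8* and *ndufb5*, which do not stand for the whole complex. Both were lower too without meeting the condition, *ndufa8* with ratios of -0.80, -0.57, -1.17 and -0.72 and *ndufb5* with -0.56, -0.46, -1.22 and -0.71. *drg2*, a GTP-binding protein, had 45.3 and 35.3 against 92.6 and 88.6 CPM, then 53.7 and 40.9 against 127 and 112 CPM. *dync2li1*, the light intermediate chain of the ciliary dynein motor, had 5.42 and 11.4 against 16.3 and 21.4 CPM, then 2.26 and 3.48 against 7.88 and 7.12 CPM. The heavy chain gene *dync2h1* had ratios from -0.17 to 0.89.

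The condition admitted 3 genes close to its limit. *irf5*, an interferon regulatory factor, had 39.5 and 38.0 CPM in morphants and 72.2 and 71.6 CPM in controls of late blastula, and 36.8 and 38.8 against 65.8 and 71.3 CPM at early gastrula, and its weakest pair was at -0.82. *lrriq1*, which encodes a leucine-rich repeat and IQ motif protein, had a weakest pair of -0.83, and that of *upk3b* was -0.82. Just outside were *hand2* (-0.7975 in its weakest pair), *MGC69473* (-0.78) and *gprc5a* (-0.78).

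The lowest mean ratios of all belonged to *LOC100487186* and *LOC100493456*, genes without an assigned name, followed by *astl2d.1*. *LOC100487186* had 1.08 and 8.23 CPM in morphants and 60.2 and 62.2 CPM in controls at late blastula, and 2.62 and 18.4 against 164 and 121 CPM at early gastrula. Its first pair was lower than its second at both stages (-4.88 and -2.78, then -5.51 and -2.66). *LOC100493456* had 7.49 and 6.41 against 85.6 and 40.2 CPM, then 30.6 and 23.0 against 312 and 182 CPM. *LOC100488209*, the most abundant member in Sox3 controls, had 14.9 and 5.32 against 97.6 and 77.4 CPM, then 169 and 78.6 against 787 and 565 CPM. At early gastrula morphants held 10.8% of the control level of *LOC100493456* and 18.3% of that of *LOC100488209*. *LOC116411630* had no count in either morphant library of late blastula and 9.32 and 4.43 CPM in the controls. Set against a floor of 3 counts in each morphant library, it was at least 61.8-fold lower by counting error alone. Its annotated span overlaps *LOC101733242*, which had 118 to 167 CPM in the Sox3 libraries of late blastula, with ratios of 0.19 and 0.21. Reads in the shared stretch could have been assigned to either gene by the estimation of counts, which the floor does not cover. In 13 members at least 1 morphant library of late blastula held under 25 counts, so their ratios there are less certain than those of abundant genes. They were *alcam*, *apela*, *astl2d.1*, *cnfn.1*, *gatm*, *s1pr5*, *upk3b*, *LOC100145165*, *LOC100488554*, *LOC100495222*, *LOC108648251*, *LOC116411587* and *LOC116411630*.

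Most of the remaining members with only an identifier were nearer to the limit. The exceptions were *LOC108648251* and *LOC116411587*, with mean ratios of -2.49 and -2.36. Both are among the members named above for their few counts at late blastula. For *LOC100135246*, *LOC100145165*, *LOC100488554*, *LOC100490457*, *LOC100494255*, *LOC100494294*, *LOC101732184*, *LOC108645453*, *LOC108648775*, *LOC116406441*, *LOC116407552*, *LOC116408820* and *LOC116410319*, mean ratios lay between -1.61 and -1.16. Members were neighbours at 3 places. *LOC116406441* (chromosome 2, 171996136 to 172037762) ended 479 bases from *p2ry2* (172038241 to 172040275). Their expected counts were not whole numbers but added up to one, as with 94.32 and 33.68 in Sox3 morphant 1 of late blastula. Reads could thus have been shared between them, and they are not independent measurements. *LOC108648775* and *LOC116407552* were 14414 bases apart on chromosome 9 (4088172 to 4097737 and 4047666 to 4073758), and both overlap the annotated span of a histone gene, *h2ac14*, that had almost no counts. *LOC100135246* and *LOC100490457* were 31586 bases apart on chromosome 6 (3453667 to 3458264 and 3417155 to 3422081). The ratios of these last neighbours were also alike, with means of -1.21 and -1.16. Overlaps with other annotated genes were found for some members, such as *lpar6* within the span of *rb1* (ratios 0.00 to 0.43) and *ptgs2* with *pla2g4a* (-0.12 to 0.16). Whether counting used strand is not stated, so reads in a shared stretch cannot be assigned with certainty.

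The ratios of the 2 stages were set side by side for each member. In 10 members both early gastrula ratios lay under both late blastula ratios, in 13 the order was the opposite, and in 24 the ratios of the stages overlapped. With 2 values against 2, such an order can also arise without a difference between stages, and its share over all genes was not computed. For 7 of the 10, *hpdl*, *ptgs2*, *angpt4* and *dyrk2* among them, morphants also held a smaller percentage of the control level at early gastrula. For the other 3 they held a larger one, with 12.9% and then 14.9% for *s1pr5*, 31.4% and 38.1% for *alcam* and 22.1% and 40.5% for *upk3b*. These genes had few CPM at late blastula, where the added 1 CPM brings the ratio nearer to 0. For all 13 of the opposite order the percentages had that order too. The mean ratio of *hpdl* was -0.97 in the late blastula pairs and -3.23 in those of early gastrula, and that of *ptgs2* was -1.47 and -3.71. Among the 13 were *cdc25b* (-3.72 and -1.73), *tat* (-2.45 and -1.03), *lpar6* (-3.28 and -2.08) and *sfrp2* (-1.97 and -1.09). With 2 pairs per stage these differences were not tested.

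**Figure D3:**
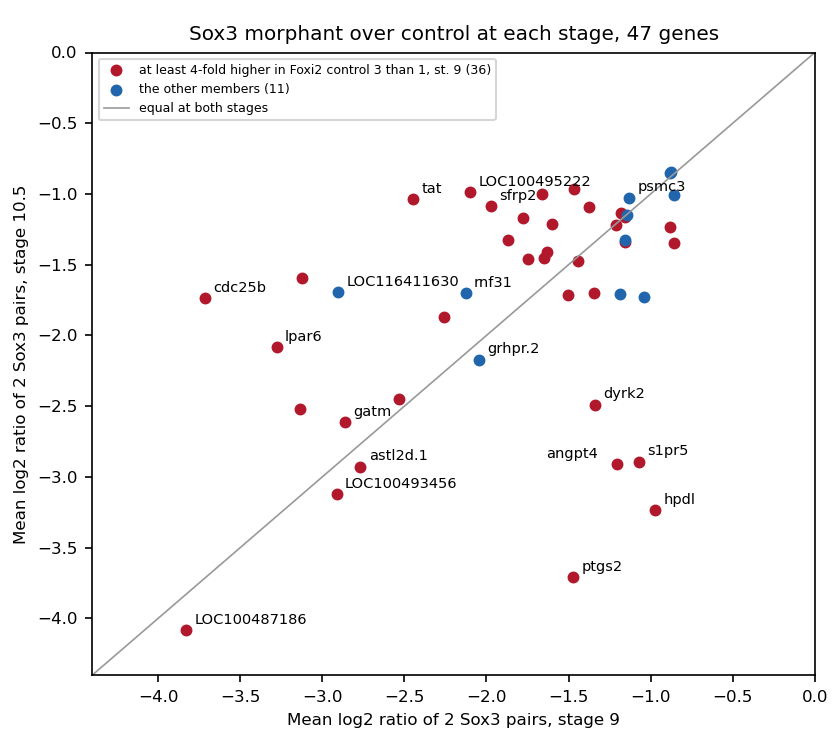
Mean log2 ratio of the 2 Sox3 pairs at stage 9 (x axis) and stage 10.5 (y axis) for each of the 47 members, with the line of equal values, red for the 36 at least 4-fold higher in Foxi2 control 3 than in control 1 of stage 9 and blue for the other 11. Points under the line, such as *hpdl* (-0.97, -3.23) and *ptgs2* (-1.47, -3.71), were lower at stage 10.5, and points above it, such as *cdc25b* (-3.72, -1.73), were lower at stage 9.

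The members' levels were mostly higher at early gastrula than at late blastula, in morphants as in controls. In controls, 25 of 47 members had every early gastrula library at least 2-fold over every late blastula library (on CPM + 1), against 2.02% of all genes. In morphants 24 of 47 did, against 2.45% of all genes, and 19 members did so in both. Both shares are over all 28850 genes, of which 12558 had a mean of at least 1 CPM in Sox3 controls. The same libraries chose the members, so these counts are a description and were not tested. *gatm* differed by 5.56 and 4.99 log2 units between the stages in controls and by 5.65 and 5.39 in morphants, at a level that was lower in morphants throughout. The 6 members that met this in controls and not in morphants were *LOC100488554*, *LOC108645453*, *angpt4*, *dyrk2*, *hpdl* and *ptgs2*. For *hpdl* the difference between stages was 2.98 and 2.59 log2 units in controls and 0.64 and 0.40 in morphants. The 5 that met it in morphants and not in controls were *LOC100494255*, *LOC116410319*, *LOC116411587*, *cdc25b* and *sfrp2*. No member was at least 2-fold lower at early gastrula by the same measure, in either group.

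The libraries of the Foxi2 experiment, which had no part in the choice, differed widely among themselves at late blastula. Foxi2 control 1, like the morphant with its number, held few mesoderm and endoderm transcripts, with 18.8 and 25.5 CPM summed over those markers, against 1027 and 1259 CPM in control 3. The ectoderm markers summed to 834 CPM in control 1, 1019 CPM in control 2 and 2295 CPM in control 3. The difference was not limited to markers of germ layers. In the same order, *eef1a1* had 545, 904 and 2096 CPM, and 5 germ plasm markers summed to 651, 579 and 410.5 CPM. The members were therefore split by whether they were at least 4-fold higher in control 3 than in control 1, and 36 of 47 were. This split sets the order of the levels in these controls, which are given as a description. The median level of the 36 was 1.11 CPM in control 1, 32.3 CPM in control 2 and 69.3 CPM in control 3. At early gastrula their median was 80.1 and 74.8 CPM. *krt7* was among these, with 0.920, 94.8 and 688 CPM in the 3 controls of late blastula, and so was *gatm*, with 0.575, 37.7 and 386 CPM. The morphants with the same numbers had 0.949, 78.8 and 490 CPM of *krt7* and 0.711, 61.9 and 454 CPM of *gatm*.

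The other 11 members were *LOC100494294*, *LOC116411630*, *drg2*, *dync2li1*, *grhpr.2*, *irf5*, *lrriq1*, *ndufa6*, *psmc3*, *rnf31* and *sike1*. Their median was 26.5, 27.4 and 30.0 CPM in the 3 Foxi2 controls of late blastula. The split keeps out only genes at least 4-fold higher in control 3 than in control 1, so it limits a rise and not a fall. *grhpr.2* had 33.9 CPM in control 1 and 99.2 CPM in control 3, while *lrriq1* had 18.4 and 5.34 CPM. In the 3 controls *drg2* had 56.8, 74.0 and 74.7 CPM, and *rnf31* had 32.2, 41.1 and 36.7 CPM. The median over the members of the mean Sox3 ratio was -1.60 in the 36 and -1.24 in the 11. Over all 761 genes that were at least 4-fold higher in Foxi2 control 3 than in control 1, the median Sox3 ratio was -0.13 and -0.11 in the late blastula pairs and 0.00 and -0.05 in the early gastrula pairs, and 44 of them (5.78%) met the ratio condition. In Foxi2 controls, edgeR's quasi-likelihood test called none of the 13247 genes tested (0%) and no member between the stages. The smallest adjusted p was 0.676, and 579 genes but no member had an unadjusted p under 0.05. DESeq2 called 5 genes and no member.

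**Figure D4:**
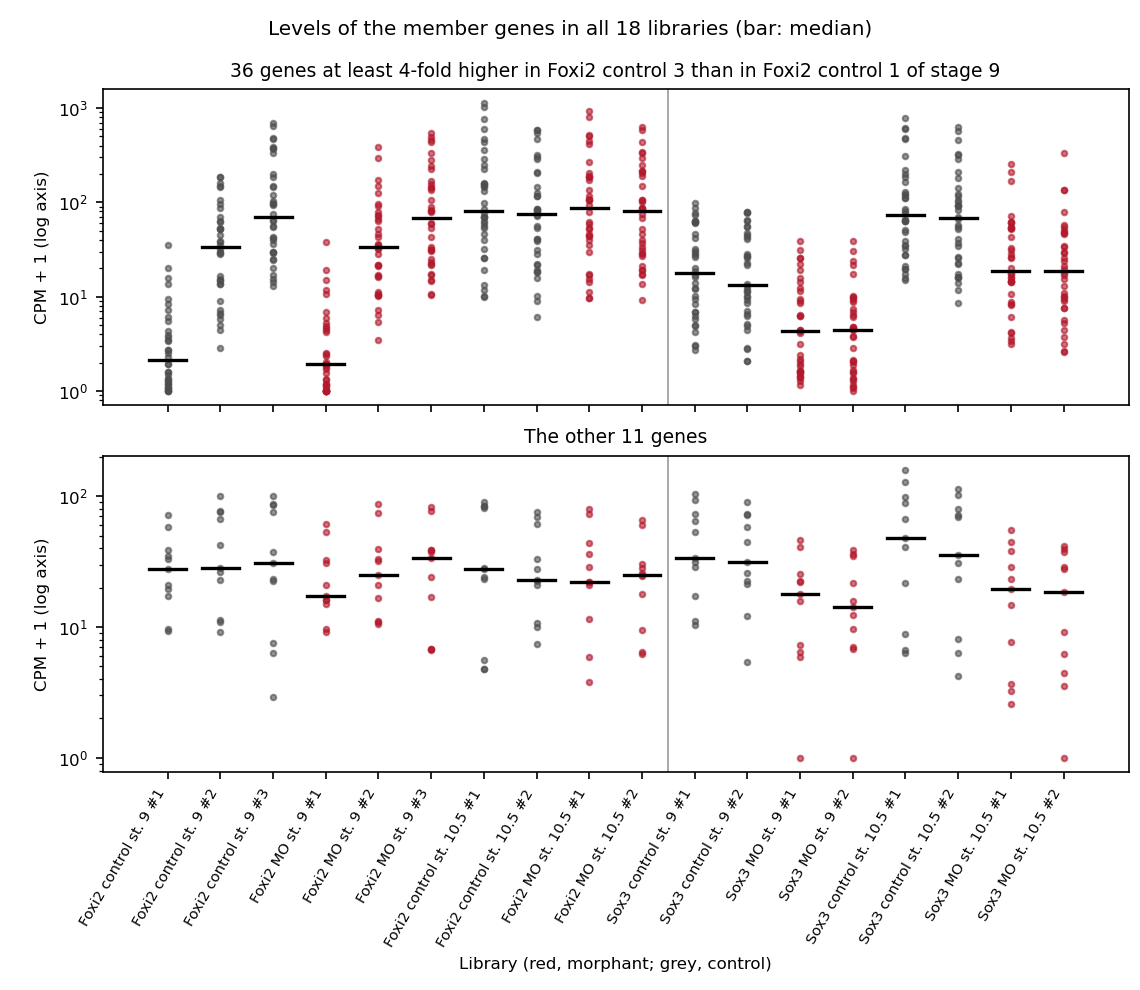
Level (CPM + 1, log axis) of each member in all 18 libraries, grey for controls and red for morphants, with a bar at the median, for the 36 members at least 4-fold higher in Foxi2 control 3 than in control 1 of stage 9 (top) and the other 11 (bottom). The split itself sets the top medians of 1.11 CPM in Foxi2 control 1 and 69.3 CPM in Foxi2 control 3, and Sox3 morphants lie under Sox3 controls in both panels.

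The response of the members to Foxi2 knockdown was tested in each stage against the Foxi2 controls. Without a term for the replicate number, edgeR's quasi-likelihood test called 0 genes (0%) and 0 members at late blastula (12802 genes tested) and 0 genes (0%) and 0 members at early gastrula (13215 tested), at an adjusted p under 0.05 and at least a 2-fold change. At an unadjusted p under 0.05 there were 145 genes with 2 members and 277 genes with 4 members. DESeq2 called 20 and 30 genes and no member. Morphants and controls with the same number were alike beyond their group, so a fit with the number as a block was set beside this one. That fit called 57 genes lower (0.445%) and 35 higher (0.273%) at late blastula, with 2 members lower and none higher, and 81 lower (0.613%) and 113 higher (0.855%) at early gastrula, with 1 member lower and none higher. Adjusted p-values below are from the fit with the block.

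*psmc3* had 15.1, 32.0 and 36.3 CPM in Foxi2 morphants and 38.0, 65.9 and 85.8 CPM in controls of late blastula, and 42.8 and 29.5 against 83.4 and 60.6 CPM at early gastrula. Each morphant was under its own control in 5 of 5 pairs, and the groups did not overlap at either stage. The log2 fold change was -1.19 (standard error 0.09, adjusted p = 0.00218) and -0.99 (standard error 0.09, adjusted p = 0.00219), which fell just short of 2-fold at the second stage. Of all genes, 23 (0.0797%) had a ratio of -0.8 or less in 5 of 5 Foxi2 pairs, and *psmc3* was the member among them. The other ATPase genes of the ring had ratios from -0.52 (*psmc4*) to 0.35 (*psmc1*) in the Foxi2 pairs.

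*grhpr.2* had 16.4, 31.1 and 37.5 CPM in Foxi2 morphants and 33.9, 75.7 and 99.2 CPM in controls of late blastula, and 35.1 and 24.1 against 89.5 and 31.9 CPM at early gastrula. The groups overlapped at both stages, and each morphant was under its own control. The log2 fold change of *grhpr.2* was -1.25 (standard error 0.09, adjusted p = 0.00218) and -0.92 (standard error 0.20, adjusted p = 0.0404). The second of these leans on control 1 of early gastrula, since the fold change without the block was -1.04 with all libraries and -0.05 without that control. *LOC116407552* had 18.2, 31.7 and 145 CPM in morphants and 19.1, 86.1 and 366 CPM in controls of late blastula, then 189 and 297 against 474 and 543 CPM. It was called at early gastrula, with a log2 fold change of -1.09 (standard error 0.10, adjusted p = 0.00251), and had -1.03 (standard error 0.23, adjusted p = 0.0826) at late blastula. In pair 1 of late blastula the morphant and the control of *LOC116407552* were nearly alike. Over the 5 fits with a block at late blastula, the adjusted p ran from 2.78e-14 to 0.0188 for *psmc3*, from 5.58e-16 to 0.0274 for *grhpr.2* and from 0.000811 to 0.410 for *LOC116407552*. Over the 2 such fits at early gastrula it ran from 4.36e-06 to 0.00219, from 0.00922 to 0.0404 and from 6.75e-16 to 0.00251. Without the block, the adjusted p of every member was at least 0.999 at late blastula and at least 0.160 at early gastrula in all fits run.

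Smaller differences passed the adjusted p with the block and stayed under 2-fold. At any fold, 156 genes were lower (1.22%) and 113 higher (0.883%) at late blastula, and these held 3 lower members and 1 higher member. At early gastrula 397 genes were lower (3.00%) and 402 higher (3.04%), and these held 8 lower and 5 higher members. The lower ones of early gastrula, besides *psmc3*, *grhpr.2* and *LOC116407552*, were *LOC100488209*, *LOC116406441*, *astl2d.1*, *krt7* and *sfrp2*. *LOC100488209* was lower at both stages (-0.97 and -0.88). For *sfrp2*, Foxi2 morphants had 42.9 and 44.7 CPM and controls 76.8 and 71.6 CPM at early gastrula, without overlap. The fitted change of *sfrp2* was -0.75 on the log2 scale (standard error 0.09, adjusted p = 0.00504, and 0.00119 by DESeq2 with the block). *krt7* had 801 and 206 CPM in morphants and 1116 and 318 CPM in controls, and its fitted change was -0.54 on the log2 scale (standard error 0.06, adjusted p = 0.00420, and 3.39e-06 by DESeq2 with the block).

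The higher members were *tat* at late blastula, and *LOC100487186*, *LOC100493456*, *dyrk2*, *gatm* and *rhob* at early gastrula. *rhob* had 509 and 586 CPM in Foxi2 morphants and 247 and 471 CPM in controls of early gastrula, and its fitted change was 0.69 on the log2 scale (standard error 0.15, adjusted p = 0.0404). By DESeq2 with the block the adjusted p was 0.565 for *rhob* and 0.566 for *LOC116406441*, so neither passed there. That fit also passed *cdc25b* as lower at both stages (adjusted p = 0.0310 at early gastrula). At late blastula it passed *ptgs2* as lower and *gatm* as higher too. At any fold it held 5 lower and 2 higher members at late blastula (168 and 138 of 19918 genes). At early gastrula it held 8 and 4 (200 and 193 of 19702 genes). At that stage *gatm* had 922 and 431 against 769 and 299 CPM, a fitted change of 0.40 on the log2 scale (standard error 0.07, adjusted p = 0.0226, and 0.00717 by DESeq2 with the block). For the genes with the lowest Sox3 ratios, *LOC100487186* and *LOC100493456*, the fitted changes at early gastrula were 0.55 and 0.51. Neither passed at late blastula (adjusted p = 0.343 and 0.532), where both were lower in the morphant of pair 1 (-0.51 and -0.41). Across the 5 pairs, 6 members had a positive ratio in all (*angpt4*, *apela*, *dyrk2*, *gatm*, *rhob* and *tat*) and 11 a negative one, among them *cdc25b*, *ptgs2*, *p2ry2* and *irf5*. Both *p2ry2* and its neighbour *LOC116406441*, which could share reads, are among the 11. Of the 12501 genes tested at both stages, 11.2% had a positive and 13.3% a negative ratio in all 5 pairs.

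As a group the members did not lean far to either side. Their median log2 fold change with the block was -0.03 at late blastula, with 28 of 47 below 0, and -0.06 at early gastrula, with 27 of 47 below 0, while the median of all genes was 0.00 at both stages. In the fit with the block, the 95% interval of the fold change was compared with a 2-fold reduction. It lay above that for 39 members at late blastula, for 41 at early gastrula and for 38 at both stages. The share over all genes was not computed. Without the block it did so for 5 members at late blastula (*drg2*, *irf5*, *ndufa6*, *rnf31* and *sike1*) and for 20 at early gastrula, and at late blastula it ran from -5.40 to 3.92 for *cdc25b* and from -4.26 to 4.85 for *lpar6*. The 38 with the block include *hpdl*, *lpar6*, *cdc25b*, *rnf31*, *drg2*, *sike1*, *irf5*, *ndufa6*, *apela*, *s1pr5* and *angpt4*. Not all of these were unchanged. Over the 47 members the interval with the block lay below 0 for 13 and above 0 for 7 at late blastula. At early gastrula it did so for 14 and 12. An interval clear of 0 is an unadjusted p under 0.05 in the same edgeR fit. At late blastula 20 of 47 members had one, against 1953 of 12802 genes. At early gastrula 26 of 47 members did, against 2709 of 13215 genes. The interval was below 0 at both stages for *cdc25b* (-0.94 to -0.26, then -0.69 to -0.17), *ndufa6*, *krt7*, *sfrp2*, *ptgs2*, *psmc3* and *grhpr.2*. The same held for *LOC100488209*, *LOC108648775*, *LOC116406441* and *LOC116407552*. It was above 0 at both stages for *angpt4*, *apela*, *dyrk2*, *gatm*, *rhob* and *tat*. The intervals are not adjusted for the number of genes. With the block, the interval of *rnf31* was -0.20 to 0.16 at late blastula and -0.22 to 0.26 at early gastrula, and for *drg2* it was -0.19 to 0.13 and -0.30 to 0.10. A different response to the 2 knockdowns was not tested, since the Sox3 values chose the genes.

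**Figure D5:**
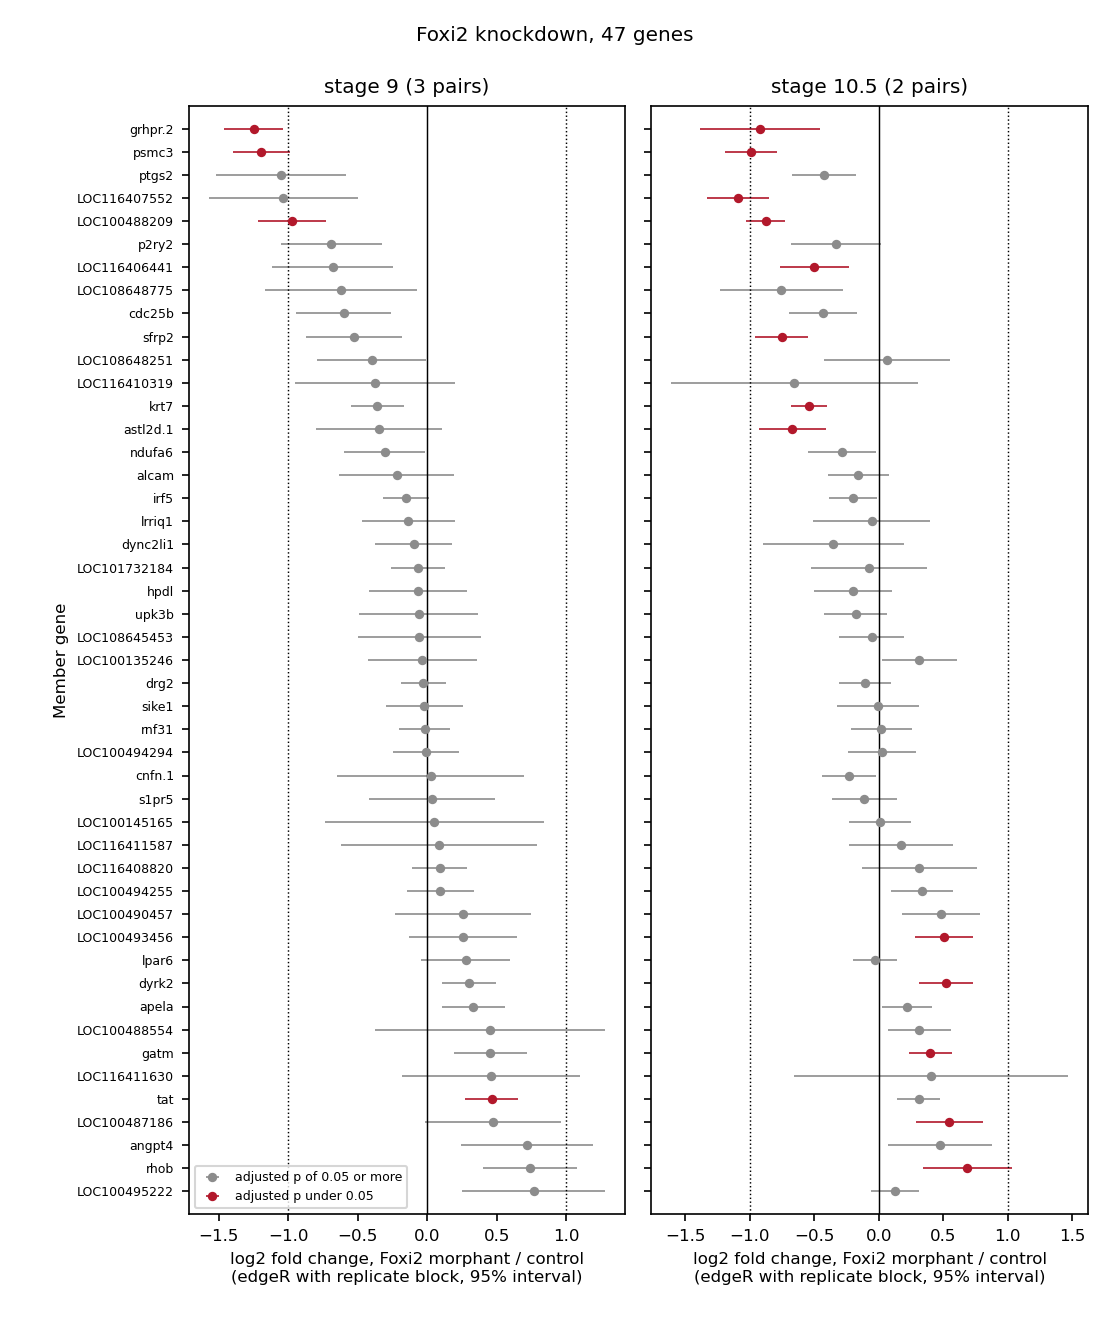
Log2 fold change of Foxi2 morphants over controls with its 95% interval (edgeR with the replicate number as a block) for the 47 members at stage 9 and stage 10.5, red where the adjusted p was under 0.05. Dotted lines mark 2-fold, and *grhpr.2* (-1.25 and -0.92) and *psmc3* (-1.19 and -0.99) are lowest at stage 9, while most members lie between the dotted lines.

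Members were a minority of each role list, so most of the list genes that passed the test in Foxi2 morphants were not members. Whether members passed more or less often than the other list genes was not tested. Of 151 genes of the 7 lists tested at early gastrula, 41 passed at any fold and 8 of these were members. At late blastula 18 of 140 passed and 3 were members. Over all genes 3.00% were lower and 3.04% higher at early gastrula, and the lists were chosen with earlier results known. With the block at early gastrula, 6 of 16 epithelial and secreted genes tested were lower and none higher at any fold (*astl2d.1*, *krt7*, *krt70*, *mmp14*, *msln* and *tmprss9*), with a median of -0.35. Of 22 enzymes and transporters, 7 were lower and 1 was higher (*gatm*), with a median of -0.25. Of 25 regulators of signalling, 2 were lower and 6 higher, among the latter *rhob* and *dyrk2*. Of 18 receptors none was lower and 1 was higher, and of 27 signals 5 were lower, *sfrp2* and *bmp4* among them, and 1 was higher. Among 20 housekeeping and unrelated genes 4 were lower at both stages, *psmc3*, *mdh1*, *rab24* and *xab2*, and *bloc1s1* was higher at early gastrula. Of 23 genes of transcription and cell cycle, 6 were lower and 1 was higher (*eomes*), with a median of -0.38.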

How the data were processed

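RNA-seq was read from 4 deposited tables of 18 libraries and 28850 genes, and 0 columns were left out. The study's methods name RSEM with STAR and genome V10.0, while the submitters' processing notes name RSEM 1.2.12 and Bowtie2 2.2.7. The authors deposited expected counts, RSEM's estimates of reads per gene, and their unequal totals show no scaling. CPM were computed from them unrounded. For tests, expected counts were rounded and fitted in R 4.3.3 with edgeR 4.0.16 (TMM, filterByExpr, glmQLFit and glmQLFTest, Benjamini-Hochberg adjustment over all genes tested), each comparison on its own libraries. Genes were called at an adjusted p under 0.05 and at least a 2-fold change. All 47 members passed the filter on low counts in each comparison. DESeq2 1.42.0 was an alternative.

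Replicate numbers recur in morphants and controls. Deviations from the group mean correlated between same-numbered libraries at 0.942, 0.800 and 0.926 in the 3 Foxi2 pairs of late blastula and at 0.868 in those of early gastrula, so the numbers were read as pairs (in groups of 2 the deviations are fixed up to their sign, which makes that check weaker), and a fit with the number as a block is given where it changes a call. The biological coefficient of variation common to all genes fell from 0.514 to 0.0804 and from 0.419 to 0.0768 with the block. The fits were tested on simulated data, where the one without the block had little power at early gastrula. No library repeats another of its own group, since a chi-square per gene between replicates was 44.0 to 192. Libraries of different groups were not compared in this way. Floors of 3 counts cover counting error only.

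The members and lists were chosen with earlier results of these data known. Genes were named by a rule: members called in a Foxi2 comparison, the 12 most abundant members, the 8 with the lowest mean ratio, the 3 nearest the limit on either side, and members of the role lists. Other members are named to account for all 47. Alternatives were DESeq2, every gene with at least 1 count, library size alone, the block, each library left out, and other forms of the ratio condition.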

Additional observations from a re-analysis of the deposited data

How the results depend on the processing

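The number of members depended on the ratio condition. It was 47 as reported, 26 at a limit of -1, 85 at a limit of -0.6, 75 and 92 with 1 pair per stage in place of 2, and 26 when every morphant had to lie under every control by the same ratio. The number was 48 with TMM scaling, 68 with a pseudocount of 0.5 CPM and 40 with a pseudocount of 2 CPM. In the Foxi2 comparisons the replicate block decided the calls. At late blastula, 0 genes were called without it, 92 with it and 20 by DESeq2, and DESeq2 with the block, added after seeing the data, called 75. At early gastrula these numbers were 0, 194, 30 and 119. Members called with the block were 2 at late blastula and 1 at early gastrula, by edgeR and by DESeq2. With the block and without pair 1, 2 or 3 of late blastula, also added after seeing the data, 199, 36 and 52 genes and 4, 3 and 2 members were called. Between stages in Foxi2 controls, DESeq2 called 5 genes against 0 by edgeR, where the block called 0. There the same number did not mark alike libraries, with a correlation of -0.33. Without the block, leaving out single libraries called from 0 to 0 genes in each comparison. The fold change of *LOC116407552* at late blastula without the block was -1.27, from -2.70 to 0.37 with single libraries left out, and positive without Foxi2 control replicate 3. With the block, *ptgs2* and *LOC116407552* were among the members called at late blastula without pair 1, and *LOC100488209* among those called without pair 2. The fold changes of *psmc3* and *grhpr.2* were negative under every alternative, but that of *grhpr.2* at early gastrula ran from -1.62 to -0.05 with single libraries left out.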
